A study of Mus musculus with 10 samples.

Results

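The kallikreins and the trypsin-like serine proteases are secreted or membrane-bound enzymes that cut proteins after arginine or lysine. They were described here in whole uterus from 5 female HSD17B1TG mice and 5 female wild-type (WT) mice at the age of 4 months. The members were the protein-coding genes whose names begin with Klk, Prss or Tmprss followed by a number, together with St14 and Hpn, and they made up 57 of the 29268 genes in the gene table. By structure and name they fell into 10 glandular kallikreins (Klk1 and the Klk1b genes), 6 other kallikreins, 22 Prss proteases and 19 membrane serine proteases (the Tmprss genes, St14 and Hpn). The name rule takes in a few proteins that are not trypsin-like in the strict sense, and they were kept as the rule gives them. Both groups were of the FVB/N strain. HSD17B1TG mice were heterozygous for a transgene that expresses human HSD17B1, the enzyme that converts estrone to estradiol, in all tissues from a CMV-enhanced chicken beta actin promoter. The study states that HSD17B1TG females do not cycle, and that WT uteri for its histology were taken at random phases of the cycle. The phase of each WT mouse used here is not given in the sources used here. The human transgene itself was not analysed here.

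Serine proteases of this class are made as inactive precursors and are switched on by a cut, often by another member of the class. Tissue kallikreins release kinins from kininogens and act on growth factors and matrix proteins, and the mouse carries a large local expansion of them. The membrane proteases, with matriptase (St14) and prostasin (Prss8) as the best known pair, act at the surface of epithelia, where they process sodium channel subunits, growth factor precursors and junction proteins and are held in check by Kunitz-type inhibitors. In the mouse uterus the implantation serine proteases Prss28 and Prss29 are known as products of the endometrial glands around the time of implantation.

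Each mouse gave 1 RNA sequencing library, with between 14817228 and 23271988 counted fragments per mouse. The HSD17B1TG mice are called TG1 to TG5 and the WT mice WT1 to WT5, which are names only and pair no mice. Levels are the FPKM of the deposited table, the fragments per kilobase of gene length, so that they may be compared between genes. For library size they were scaled by the size factor of each mouse. The fold changes come from edgeR's quasi-likelihood test on the counts, in which 16993 genes were tested. The WT mice differed widely from each other in hormone-dependent genes. Ltf, the estrogen-induced lactoferrin gene, lay at 287, 167, 8.43, 401 and 38.4 FPKM in WT1 to WT5 and at 880, 4583, 3396, 1686 and 4541 FPKM in TG1 to TG5. Every HSD17B1TG mouse was above every WT mouse in Ltf (log2 fold change 4.07, SE 0.94, adjusted p = 0.0374 in edgeR). Of 13 estrogen-induced uterine genes 4 were called higher in HSD17B1TG, and of 13 tested progesterone-induced genes 8 were called lower. Whole uterus was sequenced, and a lower level of a gene in such tissue cannot be told apart from fewer cells that express it. The summed level of 8 smooth muscle markers ranged from 867 to 7350 FPKM in HSD17B1TG and from 407 to 5776 FPKM in WT. That of 10 stroma markers ranged from 596 to 2301 FPKM in HSD17B1TG and from 1966 to 2413 FPKM in WT, and 4 of the 10 were called lower in HSD17B1TG.

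Promoter windows are shown for the glandular kallikreins and the implantation proteases, because the members in each of these neighbouring sets were high in the same WT mice, and for Klk11, the kallikrein that was called higher in HSD17B1TG. Each window runs from 250 bases before to 50 bases after the RefSeq start site on build GRCm38.p6, 5′ to 3′, and all lie on the plus strand. Capitals mark the letters GGTCA (estrogen response element half-site), TGTTCT (progesterone or androgen response element half-site) and the TATA box letters TATAAA on either strand.
Klk1, chr7:44225110-44225409: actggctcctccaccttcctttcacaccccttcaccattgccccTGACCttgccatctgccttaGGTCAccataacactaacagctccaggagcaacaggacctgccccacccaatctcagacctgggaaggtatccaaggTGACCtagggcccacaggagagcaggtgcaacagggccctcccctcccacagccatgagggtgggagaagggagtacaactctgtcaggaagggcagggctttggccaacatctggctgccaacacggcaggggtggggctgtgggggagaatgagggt
Klk1b21, chr7:44102042-44102341: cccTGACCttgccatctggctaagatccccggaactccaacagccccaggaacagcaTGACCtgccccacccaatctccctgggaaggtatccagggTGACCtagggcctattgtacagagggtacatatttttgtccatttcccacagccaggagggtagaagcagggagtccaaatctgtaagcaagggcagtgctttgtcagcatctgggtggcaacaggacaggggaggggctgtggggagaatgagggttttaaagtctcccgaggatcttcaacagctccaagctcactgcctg
Klk1b24, chr7:44187986-44188285: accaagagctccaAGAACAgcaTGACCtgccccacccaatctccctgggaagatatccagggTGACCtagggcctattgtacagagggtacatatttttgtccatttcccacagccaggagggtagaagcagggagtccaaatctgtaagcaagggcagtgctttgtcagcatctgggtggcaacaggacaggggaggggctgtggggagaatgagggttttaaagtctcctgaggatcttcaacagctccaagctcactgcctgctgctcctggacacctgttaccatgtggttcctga
Klk11, chr7:43774367-43774666: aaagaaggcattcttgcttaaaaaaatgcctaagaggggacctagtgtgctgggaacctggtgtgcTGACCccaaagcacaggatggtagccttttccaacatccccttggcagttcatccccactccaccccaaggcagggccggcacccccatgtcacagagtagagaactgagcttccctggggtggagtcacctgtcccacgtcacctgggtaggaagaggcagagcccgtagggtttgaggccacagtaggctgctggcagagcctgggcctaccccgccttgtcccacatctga
Prss28, chr17:25308396-25308695: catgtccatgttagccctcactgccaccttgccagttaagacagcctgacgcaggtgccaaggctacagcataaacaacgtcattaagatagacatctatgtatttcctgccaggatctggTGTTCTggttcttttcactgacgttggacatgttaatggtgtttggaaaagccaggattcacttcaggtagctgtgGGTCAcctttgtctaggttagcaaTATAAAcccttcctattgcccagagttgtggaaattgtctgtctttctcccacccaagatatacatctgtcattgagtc
Prss29, chr17:25318404-25318703: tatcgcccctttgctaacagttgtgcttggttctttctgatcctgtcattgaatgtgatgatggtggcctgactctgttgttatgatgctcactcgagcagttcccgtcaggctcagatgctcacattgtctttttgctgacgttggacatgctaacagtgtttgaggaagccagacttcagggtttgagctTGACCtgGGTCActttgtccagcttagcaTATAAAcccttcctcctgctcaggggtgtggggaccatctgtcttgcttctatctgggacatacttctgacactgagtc

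A RefSeq window was matched for 44 of the 57 members, and 13 (Prss8, Prss16, Prss22, Prss44, Prss48, Prss52, Prss57, St14, Tmprss4, Tmprss6, Tmprss7, Tmprss11e and Tmprss13) were not matched. The windows of Klk1b21 and Klk1b24 were 97.7% identical over 265 aligned bases, and each was about as far from Klk1, with 80.3% and 79.5% identity. The windows of Klk1 and Klk11, by contrast, shared 55.2% of their aligned bases, and those of Klk1 and Prss29, on different chromosomes, 56.4%. Gap bases are left out of these shares, with 92 for Klk1 and Klk1b21 and 162 for Klk1 and Klk1b24. Klk1 and Klk1b21 each hold 3 GGTCA half-sites and Klk1b24 holds 2. The windows of Klk1b21 and Klk1b24 do not begin at matching bases. Their shared half-sites lie at -193 and -153 in Klk1b21 and at -228 and -188 in Klk1b24. The half-site at -247 in Klk1b21 lies in a stretch that the Klk1b24 window does not cover. Prss28 and Prss29, which were 66.1% identical, both hold TATAAA at position -29, and they were the only 2 of the 44 member windows with these letters, which occur in 13.6% of all 32851 RefSeq windows. The half-site GGTCA was found in 22 of the 44 member windows and in 40.5% of all windows, and TGTTCT in 9 of 44 and in 19.0%. The full estrogen response element GGTCANNNTGACC was in none of the 44 and in 0.07% of all windows. These are letter matches and were not read as binding sites.

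Of the 57 members 25 had enough counts to be tested, and 32 did not. Of the 25, 19 had a fold change above 1 in HSD17B1TG and 6 below, where 50.2% of all genes tested lay above. The count filter bears on this split and on the median fold change given below. A member with counts in all HSD17B1TG mice could pass through that group alone, as Prss32 did. Members high in only a few WT mice, such as Klk1b24, Prss28, Prss29 and Tmprss11a, were left out. A gene was called when its adjusted p was below 0.05, its fold change above 2 and its mean level above 1 FPKM in either group. By this rule 3 members were called higher in HSD17B1TG, namely Klk11, Prss32 and Tmprss6, against 2.16% of all genes tested. No member was called lower in edgeR, against 2.08% of all genes tested, and in either direction 4.24% of all genes were called. The adjusted p alone was passed by the same 3 members, all higher, against 3.34% of all genes higher and 2.81% lower. At an unadjusted p below 0.05, 9 members were higher (background 14.7%) and 2 were lower, Klk1 and Prss41 (background 11.4%). The median log2 fold change of the 25 was 0.96, and that of all 16993 genes was 0.0021. Klk11, Prss30 and Prss32 were the 3 members in which every HSD17B1TG mouse was above every WT mouse, as were 4.04% of all genes, and no member was below throughout, as were 2.65%. The 3 calls depended on which mice were in the fit, as did the calls among all genes. Without TG2, TG4, TG5, WT2 or WT5 in turn, no member was called, and all genes gave between 38 and 83 calls higher in place of 367. Without WT1 only Tmprss6 was called, and without WT3 only Klk11. Without TG1 5 members were called, and without WT4 7, with 763 and 888 calls higher among all genes. With DESeq2 5 members were called higher (Klk11, Prss32, St14, Tmprss6 and Tmprss11g) and Klk1 was called lower. Among all 29268 genes in that fit, 906 were called higher and 666 lower. With voom and quality weights 9 members were called higher and 0 lower. Among the 16993 genes in that fit, 1083 were called higher and 665 lower.

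**Figure D1:**
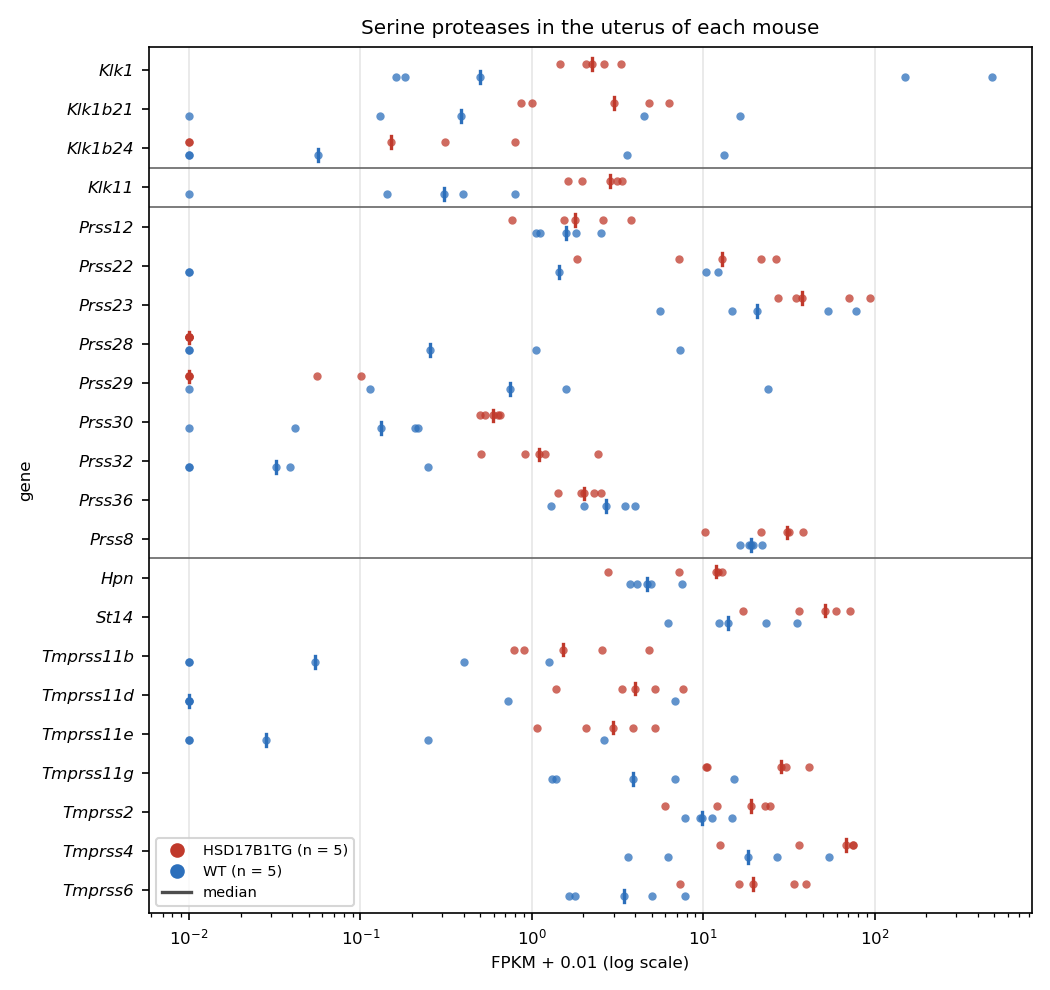
FPKM of the 22 members named in the text in each mouse, with 0.01 added so that a level of 0 could be drawn on the log axis. Each red point is an HSD17B1TG mouse, each blue point a WT mouse, and the short bar is the median of the 5 mice of a group. The 2 WT points of Klk1 at the right are 150 and 483 FPKM, while in Klk11, Prss30 and Prss32 all red points lie to the right of all blue points.

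Klk1, the tissue kallikrein gene (chromosome 7, 44225360 to 44229618, GRCm38), stood apart by the spread among WT mice. Its level was 0.15, 0.49, 0.17, 150 and 483 FPKM in WT1 to WT5, from 4, 10, 3, 3341 and 10656 counts. In TG1 to TG5 it was 1.44, 3.31, 2.07, 2.25 and 2.62 FPKM, from 29 to 62 counts. All HSD17B1TG mice thus lay above 3 of the WT mice and far below the other 2, and the medians (2.25 FPKM in HSD17B1TG, 0.49 in WT) and the means (2.34 ± 0.69 against 127 ± 209 FPKM, SD, n = 5 each) went in opposite directions. In WT5, Klk1 took 0.0555% of all counted fragments. The range of log2 CPM (counts scaled to library size) over the WT mice was 10.9 for Klk1, the widest of the 16993 genes tested, against a median range of 0.91. In HSD17B1TG mice its range was 1.16, near the median of 1.09. edgeR gave a log2 fold change of -5.76 (SE 1.94, adjusted p = 0.0922). The two-sided exact permutation test of the log2 levels over the 252 assignments of the mice gave p = 0.579, unadjusted. The log2 fold change was -4.03 without WT5 and 0.035 with voom and quality weights, which down-weight libraries that stand apart, while DESeq2 gave an adjusted p of 0.00573. Without such weights, limma on log2(FPKM + 0.1) and on log2(FPKM + 1) gave -1.06 and -1.72.

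The other glandular kallikreins lie beside Klk1 in a run of kallikrein genes on chromosome 7, from 43690418 to 44229618 on GRCm38, which holds all 16 kallikrein members. Klk1b21 was found at 0.37, 0.12, 0, 4.50 and 16.5 FPKM in WT1 to WT5. In TG1 to TG5 it was at 0.99, 6.34, 2.99, 0.85 and 4.79 FPKM, so that the groups overlapped (log2 fold change -0.43, SE 1.24, adjusted p = 0.856), and the log2 fold change was 1.32 without WT5. Klk1b24 reached 3.58 and 13.1 FPKM in WT4 and WT5 and was at most 0.79 FPKM in the other mice, which left it below the count filter. WT4 and WT5 were therefore the highest WT mice in all 3 genes. Fragments of Klk1b21 made up 2.37% of the sum of Klk1 and Klk1b21 in WT4 (Wilson 95% interval 1.91% to 2.93%) and 2.68% in WT5 (2.40% to 3.005%). For Klk1b24 these shares were 1.91% (1.5002% to 2.42%) and 2.17% (1.91% to 2.46%). These intervals cover counting error only. In the HSD17B1TG mice, in contrast, Klk1b21 had from 12 to 96 counts and Klk1 itself from 29 to 62. The longest annotated transcripts of Klk1b21 and Klk1b24 are 86.7% and 86.2% identical to that of Klk1 and 94.1% identical to each other. No stretch of 150 bases, the length of 1 read, is shared exactly between any of them and another gene, but how fragments that match several genes were counted is not given in the sources used here, so that small levels of Klk1b21 and Klk1b24 beside a high level of Klk1 are uncertain. The other 7 glandular kallikreins were not tested and reached at most 0.84 FPKM in any mouse.

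**Figure D2:**
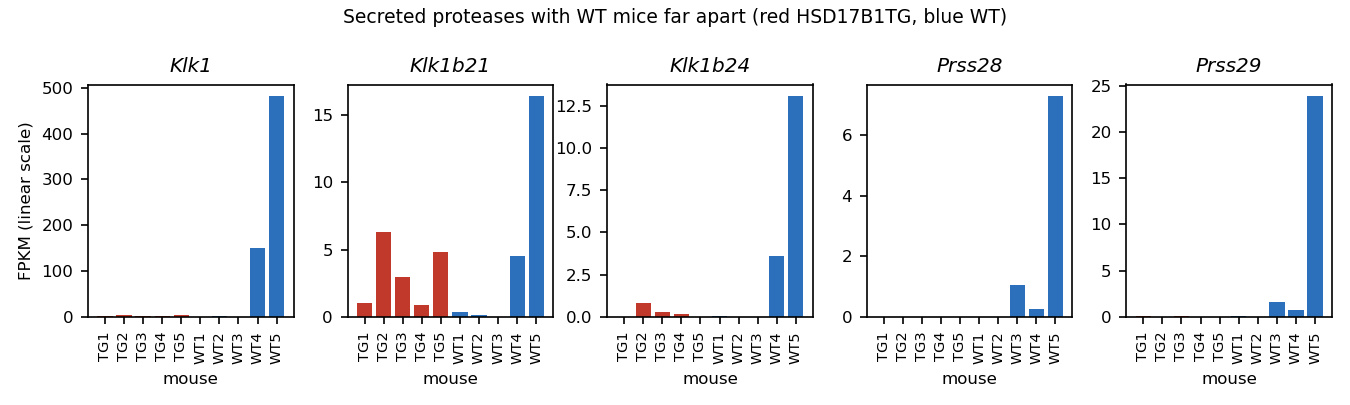
FPKM of Klk1, Klk1b21, Klk1b24, Prss28 and Prss29 in each mouse, on linear axes that start at 0 and differ between panels, red for HSD17B1TG and blue for WT. WT5 is the highest mouse in all 5 panels. WT4 is the next highest WT mouse in the kallikrein panels, and WT3 in the Prss28 and Prss29 panels.

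Klk11 (chromosome 7, 43774604 to 43779263), a kallikrein known from secretory and stratified epithelia, was the kallikrein called higher. It was found at 2.85, 3.37, 1.96, 1.61 and 3.11 FPKM in TG1 to TG5 and at 0.39, 0.79, 0, 0.30 and 0.13 FPKM in WT1 to WT5. The lowest HSD17B1TG mouse was thus above the highest WT mouse, and the log2 fold change was 2.97 (SE 0.68, adjusted p = 0.0366 in edgeR). It was called in 4 of the 10 fits with 1 mouse left out, with adjusted p between 0.0337 and 0.0856. Klk11 overlaps the noncoding 2310002F09Rik on the other strand along its whole length, and without the strand setting of the counts the fragments of both cannot be told apart. Of the remaining kallikreins outside the Klk1 group, Klk8 was tested and lay below 1.4 FPKM in every mouse (log2 fold change -0.47, adjusted p = 0.669), and Klk6, Klk9, Klk10 and Klk14 were not tested, with Klk10 reaching 1.23 FPKM in WT2.

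Prss28 and Prss29, the implantation serine proteases, are neighbours on chromosome 17 and shared their WT pattern. Prss29 was at 0.10, 0, 1.58, 0.74 and 24.0 FPKM in WT1 to WT5, and in HSD17B1TG mice it had 1 count in TG1, 2 in TG3 and none in the others. Prss28 was at 0, 0, 1.04, 0.24 and 7.30 FPKM in WT1 to WT5, and no fragment was counted in any HSD17B1TG mouse, which allows up to 0.162 FPKM in the mouse with the highest limit (3 counts per library). Both genes were thus highest in WT5 and next in WT3, and in some WT mice they were as low as in HSD17B1TG mice. Neither passed the count filter, and the exact permutation test gave p = 0.167 for Prss28 and p = 0.0556 for Prss29, both two-sided and unadjusted. In edgeR without the filter their adjusted p was 0.118 and 0.0541. Of 9 gland markers 7 were tested, 6 had a negative log2 fold change, the median was -1.18, and none was called. Cxcl15, a gland marker gene, was listed at 0 in TG1 to TG4 and at 1.06 FPKM in TG5, and at 1.78, 18.8, 32.3, 0.16 and 9.76 FPKM in WT1 to WT5 (adjusted p = 0.0566). Lif went the other way (log2 fold change 1.71, adjusted p = 0.0773), and Ttr, which was not tested, was listed at 0 in all 5 HSD17B1TG mice and at 0.079 to 15.4 FPKM in WT mice. Spink1, a trypsin inhibitor of the same marker list that was picked out after its values were seen, was at 36.4 FPKM in WT3 and 14.7 FPKM in WT5 and at most 0.15 FPKM elsewhere. The summed gland markers were lowest in TG1 at 20.7 FPKM and highest in WT3 at 188 FPKM, and Foxa2, the gland transcription factor, overlapped between the groups (0.79 to 4.88 FPKM in HSD17B1TG, 0.80 to 9.60 in WT). The part of the number of gland cells in the levels of Prss28 and Prss29 was not tested. WT4 and WT5, the WT mice with high Klk1, were at 42.3 and 55.9 FPKM in the summed gland markers, and WT1 to WT3 at 53.2, 123 and 188 FPKM.

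Among the other Prss genes, Prss32 (chromosome 17, 23843855 to 23859779) had the highest fold change of all members tested. It was at 0.50, 1.10, 0.90, 1.18 and 2.41 FPKM in TG1 to TG5 and at 0.022, 0.029, 0, 0.24 and 0 FPKM in WT1 to WT5. The groups did not overlap, and the log2 fold change was 4.29 (SE 0.88, adjusted p = 0.0274). WT4 accounted for most of the WT signal, and without it the log2 fold change was 6.15, while 3 of the 10 fits with 1 mouse left out kept the call. Prss30, a protease known from the intestinal epithelium, was nearly constant at 0.49 to 0.65 FPKM in HSD17B1TG mice and lay at 0.21, 0, 0.031, 0.12 and 0.20 FPKM in WT1 to WT5. The groups again did not overlap (log2 fold change 2.29, SE 0.62), but the adjusted p was 0.0527 and the level was below 1 FPKM. Its adjusted p was below 0.05 in 4 of 8 alternative fits, DESeq2 (0.00136) among them. With 1 mouse left out it was below 0.05 in 0 of 10 fits. Prss41, which overlaps the start of Prss32 by 318 bases on the other strand, was at 0.094 to 0.22 FPKM in HSD17B1TG and at 0.15 to 0.66 FPKM in WT (log2 fold change -1.66, SE 0.49, adjusted p = 0.0644). Prss30, Prss32 and Prss41 are neighbours on chromosome 17, and their fold changes did not share a direction.

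The 2 most highly expressed Prss genes did not differ beyond their spread. Prss23, a secreted protease, was at 94.4, 37.8, 27.3, 70.5 and 34.8 FPKM in TG1 to TG5 and at 53.2, 14.7, 5.61, 78.3 and 20.6 FPKM in WT1 to WT5 (log2 fold change 0.62, SE 0.62, adjusted p = 0.568). Its 3 highest mice, TG1, WT4 and TG4, were also the 3 highest in the summed smooth muscle markers, at 7350, 5776 and 3086 FPKM. The part of muscle in the level of Prss23 was not tested. Prss8, the membrane-anchored prostasin that activates the epithelial sodium channel, was at 10.3, 31.8, 30.7, 21.7 and 38.4 FPKM in TG1 to TG5 and between 16.4 and 21.9 FPKM in the WT mice. Unlike Klk1 it was thus even among WT mice, with a log2 fold change of 0.48 (SE 0.29, adjusted p = 0.323). Prss22, a tryptase of airway epithelium, was at 1.82, 7.21, 26.4, 21.7 and 12.9 FPKM in TG1 to TG5 and at 10.3, 1.43, 0, 12.2 and 0 FPKM in WT1 to WT5. Its WT mice thus spanned from the HSD17B1TG range down to no count at all (log2 fold change 1.55, SE 1.26, adjusted p = 0.473). Prss12, the neurotrypsin that cuts agrin, and Prss36 overlapped between the groups at 0.76 to 3.79 FPKM and 1.28 to 3.97 FPKM (log2 fold changes 0.37 and -0.41, adjusted p = 0.628 and 0.452).

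The membrane serine proteases that were tested all lay on the same side. Of the 19, 11 were tested, and all 11 were higher in HSD17B1TG by the sign of the fit (50.2% of all genes), at a median of 1.38 on the log2 scale. Of these, 6 had an unadjusted p below 0.05 (14.7% of all genes in this direction), and 1, Tmprss6, was called (2.16%). Tmprss6 (chromosome 15, 78439667 to 78468634), which in the liver cuts hemojuvelin and so lowers hepcidin, was at 7.35, 33.7, 19.6, 16.2 and 39.8 FPKM in TG1 to TG5 and at 7.77, 3.43, 1.77, 5.00 and 1.64 FPKM in WT1 to WT5. TG1 lay just below WT1, and the other HSD17B1TG mice were above all WT mice (log2 fold change 2.57, SE 0.54, adjusted p = 0.0293). It was called in 4 of the 10 fits with 1 mouse left out, with adjusted p between 0.0146 and 0.0756. St14, the matriptase gene, was at 17.1, 51.1, 59.3, 36.1 and 71.7 FPKM in TG1 to TG5 and at 23.3, 13.8, 6.20, 35.1 and 12.3 FPKM in WT1 to WT5. Of the HSD17B1TG mice 4 were above all WT mice (log2 fold change 1.38, SE 0.47, adjusted p = 0.0981), and DESeq2 gave an adjusted p of 0.0360. Tmprss4, a protease raised in several carcinomas, had the highest level of the group, at 12.5, 68.0, 74.3, 36.3 and 74.3 FPKM in TG1 to TG5 and 18.2, 6.20, 3.62, 53.9 and 26.9 FPKM in WT1 to WT5. Here WT1, WT4 and WT5 lay above TG1, and WT4 also lay above TG4 (log2 fold change 1.29, SE 0.69, adjusted p = 0.267).

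Tmprss2, which also primes the entry proteins of respiratory viruses, and Hpn, the hepsin that cuts the HGF precursor, were more even among WT mice. Tmprss2 was at 5.95, 23.1, 19.1, 12.04 and 24.6 FPKM in TG1 to TG5 and at 7.81 to 14.7 FPKM in WT mice (log2 fold change 0.67, SE 0.34, adjusted p = 0.237). Hpn was at 2.79, 12.3, 12.9, 7.24 and 11.9 FPKM in TG1 to TG5 and at 3.72 to 7.48 FPKM in WT mice (log2 fold change 0.92, SE 0.37, adjusted p = 0.147). In both genes TG1 was the lowest of all 10 mice, as it was in Prss8. Without TG1 the adjusted p was 0.0395 for Tmprss2, 0.0210 for Hpn and 0.0320 for Prss8.

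The Tmprss11 genes, proteases of airway and squamous epithelium that lie together on chromosome 5 from 86231481 to 86745815 with 7 members, included genes that WT mice either expressed or hardly expressed. Tmprss11d was at 1.38, 3.97, 5.23, 3.33 and 7.63 FPKM in TG1 to TG5 and at 0.71, 0, 0, 6.86 and 0 FPKM in WT1 to WT5. Tmprss11e was at 1.07, 5.20, 3.86, 2.05 and 2.95 FPKM in HSD17B1TG and at 0.24, 0, 0.018, 2.64 and 0 FPKM in WT. Tmprss11b was at 0.77, 4.81, 0.89, 1.52 and 2.54 FPKM in HSD17B1TG and at 0.39, 0, 0.045, 1.25 and 0 FPKM in WT. In all 3 genes WT4 was within the HSD17B1TG range, WT1 was next, and the other WT mice were at or near 0. On the log2 scale the fit gave 1.51, 2.39 and 2.64 for Tmprss11d, Tmprss11e and Tmprss11b (adjusted p = 0.536, 0.273 and 0.191). Without WT4 they were 4.50, 5.41 and 4.20, with adjusted p of 0.0460, 0.0132 and 0.0449. With WT4 in the fit, voom with quality weights also called all 3 (adjusted p = 0.00848, 0.00685 and 0.0179). Tmprss11g was the most highly expressed of the cluster, at 10.4, 41.3, 28.5, 10.5 and 30.6 FPKM in TG1 to TG5 and at 15.0, 1.38, 3.89, 6.86 and 1.30 FPKM in WT1 to WT5 (log2 fold change 2.09, SE 0.69, adjusted p = 0.0880). Tmprss11a went its own way, with 3.15 FPKM in WT1 and at most 0.61 FPKM in the other mice, and was not tested. Tmprss11c and Tmprss11f reached at most 0.36 FPKM. Of 12 squamous epithelium markers 8 were tested, 2 passed an adjusted p of 0.05 in the higher direction (Krt1 and Krt13), and Krt13 was called. Of the 8, 5 had a positive log2 fold change, and Lor, Sbsn and Trp63 were at -0.76, -0.35 and -0.53 and were not called. Their summed level was 10.7 to 48.1 FPKM in HSD17B1TG and 10.8 to 14.3 FPKM in WT, and among the defining markers Krt5 was at 0 in TG5. The mean of the list on the log2(FPKM + 0.1) scale was -1.33 in TG1 and -1.38 in TG5, below all WT mice (-1.26 to -0.95), and -0.48, 0.15 and 0.10 in TG2 to TG4, above them.

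**Figure D3:**
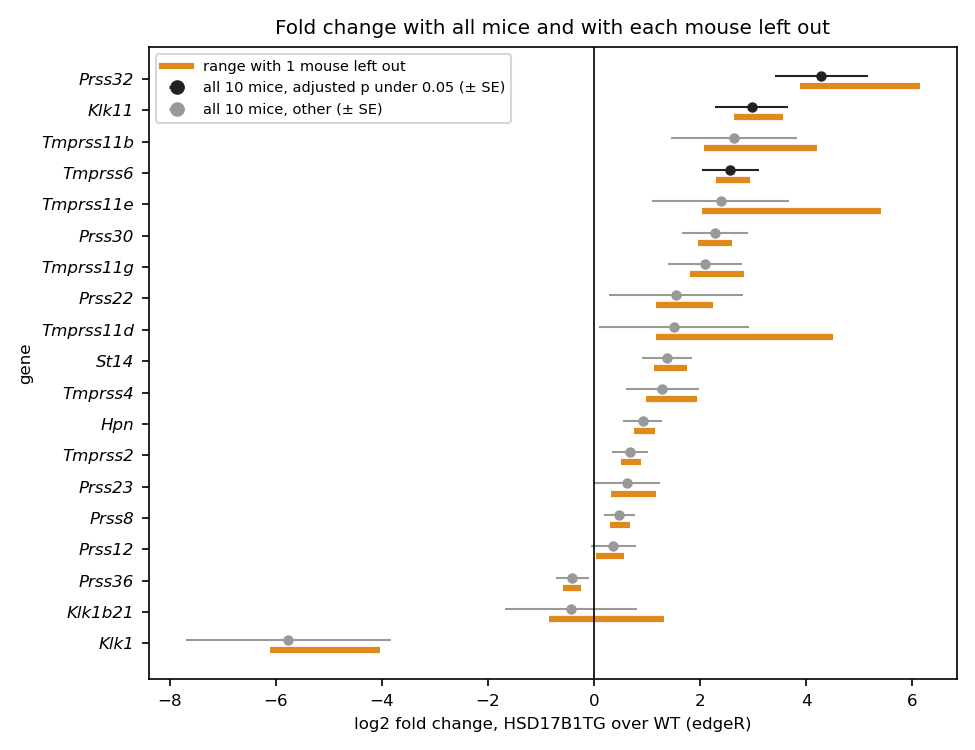
log2 fold change of HSD17B1TG over WT from edgeR for the 19 named members that were tested. Points and thin bars are the fit with all 10 mice ± SE, black where the adjusted p was below 0.05, and orange bars span the 10 fits with 1 mouse left out. Klk1b21 is the gene whose orange bar crosses 0, and the bars of Tmprss11d, Tmprss11e and Prss32 reach far to the right, to 4.50, 5.41 and 6.15, with WT4 left out.

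The epithelium markers had fold changes of the same sign as the tested membrane proteases. All 12 epithelium markers (among them Epcam, Cdh1 and Krt8) had a positive log2 fold change, at a median of 1.24, but none was called. Their summed level was 738, 2432, 2659, 2036 and 3382 FPKM in TG1 to TG5 and 1125, 846, 668, 1758 and 524 FPKM in WT1 to WT5, so that TG1 lay among the WT mice and WT4 between TG1 and TG4. Taken per mouse relative to the mean of these markers, on the log2(FPKM + 0.1) scale, the difference of St14 between the groups was 0.17 in place of 1.45, and that of Tmprss4 was 0.34 in place of 1.62. For Tmprss2, Hpn and Prss8 the difference changed sign, from 0.54, 0.76 and 0.35 to -0.75, -0.52 and -0.93. For Tmprss6 it was 1.27 in place of 2.55, with HSD17B1TG mice at -2.79 to -1.87 and WT mice at -3.92 to -3.03, so that the groups did not overlap. The differences of Tmprss11d, Tmprss11e and Tmprss11b were 2.15, 2.15 and 1.56 in place of 3.44, 3.43 and 2.84, and that of Prss22 was 1.86 in place of 3.14. The groups overlapped in these 4 genes, and WT4, at -3.47 in Tmprss11d, was above all HSD17B1TG mice. For Tmprss11g, Klk11 and Prss32 it was 1.15, 1.68 and 1.80. For Prss12, Prss23 and Prss36 it was -1.04, -0.28 and -1.59 in place of 0.25, 1.01 and -0.31. Taken this way the groups overlapped in Tmprss11g and in Klk11, which had not overlapped in FPKM (WT2 at -5.62 was above TG3, TG4 and TG5), and they did not overlap in Prss32. For Prss30 they overlapped, and the difference was 0.52 in place of 1.80. These differences are a description without a test.

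**Figure D4:**
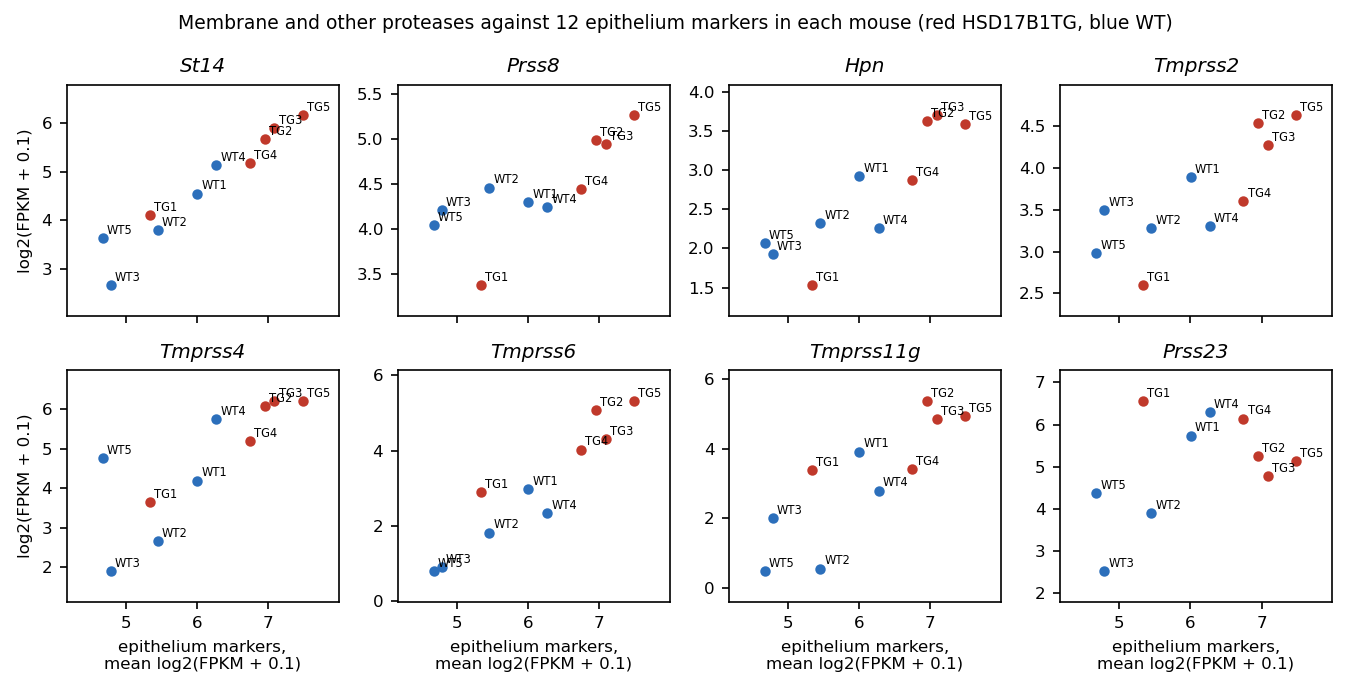
Level of 8 proteases against the mean of the 12 epithelium markers, both as log2(FPKM + 0.1), with 1 point per mouse, red for HSD17B1TG and blue for WT. St14 follows the markers across both groups, Tmprss6 of TG1 lies higher than in WT2, the WT mouse nearest to it in marker level, while TG2 to TG5 have higher marker levels than every WT mouse, and Prss23 does not follow them among HSD17B1TG mice.

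Of the genes that regulate these enzymes, 12 of 20 protease inhibitors in the table were tested, and 1 was called in each direction. Spint2, the Kunitz-type inhibitor of matriptase, prostasin and hepsin, rose from 36.9 to 94.9 FPKM in WT mice to 102 to 346 FPKM in HSD17B1TG mice (log2 fold change 1.58, SE 0.36, adjusted p = 0.0345). Every HSD17B1TG mouse was above every WT mouse in Spint2. The part of epithelial cells in the level of Spint2 was not tested. Serpine2, an inhibitor of thrombin, plasminogen activators and prostasin, fell by 1.82 on the log2 scale (SE 0.47, adjusted p = 0.0471). Serpina1a, an alpha-1-antitrypsin gene, was at 6.24 to 27.8 FPKM in HSD17B1TG and 0.029 to 3.75 FPKM in WT, with an adjusted p of 0.0506, and its near-identical copies may share its reads.

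Of 20 tested substrates and receptors 1 was called higher and 3 lower, with Hgf, Bdkrb2 and F2r as the genes of smallest p. Hgf, the growth factor whose precursor hepsin and matriptase cut, was at 0.14 to 0.46 FPKM in HSD17B1TG and 0.40 to 3.23 FPKM in WT (log2 fold change -2.86, SE 0.58, adjusted p = 0.0270). Bdkrb2, the receptor for the kinins that kallikreins release, was at 0.81 to 2.18 FPKM in HSD17B1TG and 1.55 to 7.06 FPKM in WT (log2 fold change -2.06, SE 0.42, adjusted p = 0.0279). F2r, the thrombin receptor, was at 3.62 to 7.23 FPKM in HSD17B1TG and 5.56 to 37.7 FPKM in WT (log2 fold change -1.94, SE 0.44, adjusted p = 0.0345). In all 3 genes WT4 was the lowest WT mouse and lay within the HSD17B1TG range. The gene called higher was Cdcp1, a membrane protein that matriptase cuts. Of 24 other serine proteases tested 1 was called in each direction, and their median log2 fold change was -0.0026. Complement factor I (Cfi) rose by 2.76 on the log2 scale (SE 0.64, adjusted p = 0.0376), granzyme B (Gzmb) fell by 4.42 (SE 1.14, adjusted p = 0.0471), and granzyme A (Gzma) had a log2 fold change of -3.28 (SE 0.89, adjusted p = 0.0531). The called shares of these lists stand beside 2.16% and 2.08% of all genes.

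Markers of other cell types and tissues were read beside these levels. Pancreas markers, 6 in the table, summed to at most 0.49 FPKM in any mouse, and the pancreatic lipase gene Pnlip was at most at 0.077 FPKM. Of the salivary gland list 4 genes were in the table, and their sum, 44.4 to 136 FPKM in HSD17B1TG and 4.19 to 46.3 FPKM in WT, included Aqp5, which the uterus itself expresses. The 10 mast cell markers, which include tryptases, summed to 50.4 to 69.7 FPKM in HSD17B1TG and 53.2 to 103 FPKM in WT, and of 8 tested 4 had a positive log2 fold change, at a median of -0.0026 over the list. Kit and Hdc were called lower, while the mast cell proteases Tpsab1, Tpsb2, Cpa3, Cma1 and Mcpt4 had log2 fold changes of 0.54, 0.39, 0.37, 0.09 and -0.09 and Gata2 of -0.11, none of them called, and Fcer1a and Ms4a2 lay below 0.5 FPKM in all mice. The summed neutrophil markers were 7.74 to 13.7 FPKM in HSD17B1TG and 0.62 to 5.04 FPKM in WT, and the leucocyte markers 75.1 to 125 and 47.1 to 71.3 FPKM, so that both sums were higher in every HSD17B1TG mouse than in every WT mouse. No neutrophil marker was called, and of 6 tested leucocyte markers Itgam (log2 fold change 3.86, adjusted p = 0.0279) and Laptm5 (1.28, adjusted p = 0.0312) were called higher and none lower. The other 4 were not called, Ptprc, Cd52 and Coro1a among them with log2 fold changes of -1.08, -1.37 and -0.90 (adjusted p = 0.0558, 0.0639 and 0.120), and the median of the 6 was -0.22, below 0 while the sum was higher. The summed levels in HSD17B1TG and WT were, for the oviduct markers, 6.15 to 16.7 and 8.32 to 11.9 FPKM and, for the adipocyte markers, 6.42 to 119 and 2.33 to 23.7 FPKM. The part of these cells in the levels of the proteases was not tested. The single marker genes given for these lists and for the squamous epithelium list, and Lif and Ttr among the gland markers, were chosen after their values were seen.

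The remaining members were low. The tested Prss16, Prss53, Tmprss9 and Tmprss13 had mean levels below 1 FPKM in both groups and adjusted p between 0.189 and 0.645. Of the 32 members that were not tested, 27 stayed below 1 FPKM in every mouse, and the other 5 were Klk1b24, Klk10, Prss28, Prss29 and Tmprss11a. Several of the genes described overlap another gene on the opposite strand, namely Klk1 (Gm10109), St14 (Gm16071), Tmprss4 (BC049352 and Gm17099), Tmprss11e (Gm16579 and Gm43055), Prss8 (Kat8), Prss12 (Gm35065), Prss23 (Prss23os) and Prss32 (Prss41 and Gm15947). Without a stated strand setting their fragments may include those of the partner. Prss53 shares 75.0% of its read-length windows with Gm21974, and the other 56 members share none with another gene.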

How the data were processed

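Uteri of 10 mice, 5 HSD17B1TG and 5 WT, gave 1 paired-end library each (150 bp, Illumina NovaSeq). The authors mapped the reads with HISAT2 2.0.5 to the mouse genome with the annotation of Ensembl 94, and tested the counts with DESeq2. The program, strand setting and treatment of multiple matches used for counting are not given in the sources used here. The deposited raw counts were the basis of the tests, and the FPKM values, which the authors scaled by gene length and by the size factor of each mouse, were used for levels. The deposited signal columns hold the counts divided by these size factors and were used only to check them. Columns and files with the authors' own fold changes, p-values and enriched terms were not used.

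Counts were fitted with edgeR 4.0.16 (filterByExpr, TMM, quasi-likelihood test, genotype as the only term) in R 4.3.3, and p-values were adjusted over all 16993 genes by the method of Benjamini and Hochberg. Named were the members with a mean above 1 FPKM in either group, an adjusted p below 0.05 or FPKM that did not overlap between the groups. Of other lists, the genes of smallest p were named, and of marker lists the sums. Alternatives were DESeq2 1.42.0, limma 3.58.1 (voom, and log2 FPKM with 0.1 or 1 added), other normalizations, filters and thresholds, and each mouse left out in turn. Exact permutation tests over 252 assignments of the mice cannot go below p = 0.00794. Scripts were tested on simulated counts. Promoter windows came from RefSeq (GRCm38.p6), and transcripts and overlaps from GENCODE M21, in which 53 of the 57 members had the same coordinates as in the deposited table. Protein sequences were not used here. The members and lists were chosen with earlier results of these data known.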

Additional observations from a re-analysis of the deposited data

Results flagged for a closer look

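The 22 named members gave 44 groups of 5 mice, of which 43 could be tested and 1 (Prss28 in HSD17B1TG) was at 0 throughout. On the log2(FPKM + 0.1) scale, 1 group held a mouse far from the others by Dixon's test. It was Prss32 in WT, where WT4 was at 0.237 FPKM (a count of 9) and the next mouse at 0.0287 FPKM (a count of 1), and the gap was 0.793 of the group's whole range on that log scale. The result depends on the scale. On linear FPKM, an alternative chosen after seeing the data, 7 groups passed the same limit, all of them WT with the highest mouse apart. This mouse was WT4 for Prss32 (0.879), Tmprss11d (0.896) and Tmprss11e (0.910), and WT5 for Klk1b21 (0.727), Klk1b24 (0.727), Prss28 (0.857) and Prss29 (0.934). Chance alone marks about 1 group in 20, and such a gap is blind to a pair of high mice, as in Klk1 with WT4 and WT5.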

How the results depend on the processing

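No paired analysis was possible because the numbers in the labels of HSD17B1TG and WT mice do not match. Of 342 fold changes of named members under the alternatives, 297 kept their direction and their side of the threshold, 19 lost and 21 gained an adjusted p below 0.05, and 5 changed sign. The sign changed for Klk1 with voom and quality weights (0.035) and for Klk1b21 with voom (2.53), with limma on log2(FPKM + 0.1) (1.40) or log2(FPKM + 1) (0.42), and without WT5 (1.32, with -0.85 to 1.32 over the mice left out). DESeq2 called 5 members higher and 1 lower, with 8 past the adjusted p alone, and 906 genes higher and 666 lower in place of 367 and 354. Voom called 9 members higher, with 10 past the adjusted p, and 1083 genes higher and 665 lower. limma on log2(FPKM + 1) called 169 genes lower. An adjusted p below 0.1 gave 5 members higher and 1 lower. With 1 mouse left out, between 0 and 7 members were called higher and between 0 and 8 passed the adjusted p, with 38 to 888 genes higher and 27 to 666 lower. The cause of these shifts was not tested. Depth limits the members below 1 FPKM, many of which rest on fewer than 10 counts in a mouse.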
